A study of Mus musculus with 12 samples.

Results

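Adult-restricted promoters were promoters whose gene was expressed in adult bone marrow haematopoietic stem cells (HSCs) and much less in fetal liver HSCs. They were chosen by the deposited expression columns: an FPKM (fragments scaled to transcript length and sequencing depth) of at least 2 in bone marrow, and an adult to fetal ratio of at least 4 after 0.1 was added to both. The rule found 161 promoters of 151 genes among the 3753 captured promoters with a contact on their own chromosome. They held 3543 of 88475 within-chromosome contacts. Batch 1 held 77 of the promoters with 1829 contacts, and batch 2 held the other 84 with 1714 contacts. No promoter was in both batches, so the batches gave values for different genes.

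Both populations came from B6129SF1 mice and were sorted as Lin-Sca1+cKit+CD135- cells, either from fetal liver at embryonic day 14.5 or from bone marrow at 6 to 8 weeks of age. Each population had 4 libraries, 2 in each of 2 batches. The assay was promoter Capture-C, in which chromatin is cut with DpnII, joined by ligation and enriched for chosen promoters with probes. The deposited table gave 1 count and 1 interaction score per contact, population and batch, with no separate libraries. Differences between the populations therefore have no replicate check, and no test was possible. Intervals below are 95% intervals (exact Clopper-Pearson for shares, order statistics for medians). They reflect the number of contacts alone, and since adjacent bins were often called together they understate the error.

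An enhancer can act on a promoter far away in sequence when chromatin folding brings them together, and capture methods count such meetings as ligated fragments. Adult HSCs are mostly quiescent, whereas fetal liver HSCs divide often. Class I MHC molecules, with beta-2 microglobulin as their invariant chain, show peptides on the cell surface, and interferon raises many of their genes. Immediate early genes such as Fos and Jun encode AP-1 transcription factors that are switched on quickly after a stimulus. Platelet genes such as Pf4 are expressed in megakaryocytes and in platelet-biased stem cells.

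Promoter sequences of 113 of the 151 genes were found in RefSeq (GRCm38.p6), and the 250 bases before the annotated start were searched. Windows were matched by gene symbol, and only the first window listed for a gene was used. A window therefore need not be that of the captured promoter. The contacts themselves are given on mm9, the build in the submitters' processing notes. The core of the interferon-stimulated response element, GAAA followed by any 2 bases and GAAA, was present on either strand in 10 of 113 windows (8.85%, 4.33 to 15.7). It was present in 3.04% of the 27025 genes' windows in the table. The 10 were B2m, Clec2d, Gbp2, Gstt1, H2-T23, Itga2b, Slfn8, Tgtp1, Tgtp2 and Trim30d. TGACGTCA, the cAMP response element, was present in 1 window, that of Dusp1, against 1.62% of all windows. TATAAA was found in 7.96% of members' windows and 13.0% of all, and the DpnII site GATC in 40.7% and 42.0%. No other motif was searched, and these differences were not tested. The windows of B2m at chr2:122147437-122147686 (plus strand) and of Gbp2, an interferon-induced GTPase, at chr3:142620413-142620662 (plus strand) show the element in capitals. In Gbp2 it is read on the opposite strand.

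B2m: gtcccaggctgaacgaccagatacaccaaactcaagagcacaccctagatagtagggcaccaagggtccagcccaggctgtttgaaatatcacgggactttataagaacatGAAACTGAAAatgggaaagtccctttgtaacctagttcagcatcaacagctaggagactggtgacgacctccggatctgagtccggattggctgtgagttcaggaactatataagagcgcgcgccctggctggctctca

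Gbp2: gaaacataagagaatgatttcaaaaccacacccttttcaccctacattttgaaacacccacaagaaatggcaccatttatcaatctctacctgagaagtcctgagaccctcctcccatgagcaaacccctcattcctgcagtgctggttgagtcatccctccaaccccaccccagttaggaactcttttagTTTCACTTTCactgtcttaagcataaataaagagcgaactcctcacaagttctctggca

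Some members have near-identical copies among the members, and 2 such pairs are shown because the values of Hspa1a, Hspa1b and H2-Q7 given below involve contacts near such copies. The windows of Hspa1a at chr17:34972157-34972406 and Hspa1b at chr17:34959239-34959488 (both minus strand), which encode the inducible heat shock protein HSP70, were identical at 247 of 250 bases. The 3 differing bases are in capitals.

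Hspa1a: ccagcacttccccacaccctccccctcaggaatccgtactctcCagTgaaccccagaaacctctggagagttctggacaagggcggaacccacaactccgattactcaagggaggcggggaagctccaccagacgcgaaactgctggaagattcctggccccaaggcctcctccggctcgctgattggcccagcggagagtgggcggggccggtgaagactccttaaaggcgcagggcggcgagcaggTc

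Hspa1b: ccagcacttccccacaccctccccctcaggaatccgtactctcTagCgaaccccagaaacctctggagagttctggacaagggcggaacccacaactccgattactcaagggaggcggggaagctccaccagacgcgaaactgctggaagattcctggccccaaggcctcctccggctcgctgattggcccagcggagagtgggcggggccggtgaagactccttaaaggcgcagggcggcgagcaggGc

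H2-Q6 and H2-Q7, neighbouring class I MHC genes at chr17:35424600-35424849 and chr17:35438905-35439154 (both plus strand), aligned over 211 columns with 205 identical bases, 5 mismatches in capitals and 1 gap. Their windows are offset because the annotated starts differ.

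H2-Q6: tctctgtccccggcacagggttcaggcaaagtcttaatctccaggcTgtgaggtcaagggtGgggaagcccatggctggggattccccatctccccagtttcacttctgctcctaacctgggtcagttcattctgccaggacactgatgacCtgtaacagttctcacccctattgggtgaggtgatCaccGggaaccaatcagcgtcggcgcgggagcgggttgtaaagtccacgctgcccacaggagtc

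H2-Q7: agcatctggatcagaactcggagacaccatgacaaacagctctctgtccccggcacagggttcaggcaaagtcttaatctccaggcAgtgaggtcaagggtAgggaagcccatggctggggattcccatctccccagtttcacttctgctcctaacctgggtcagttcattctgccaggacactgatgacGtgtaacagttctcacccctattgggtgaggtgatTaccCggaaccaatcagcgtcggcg

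The expression values that chose the members are given as a description. Adult FPKM ranged from 2.17 to 507 in batch 1 (median 9.25) and from 2.02 to 418 in batch 2 (median 3.73). Fetal FPKM had medians of 0.929 and 0.416. H2-K1 and B2m, selected on these values, stood highest, with 507 against 76.1 and 418 against 81.1. The deposited table marked 155 members as differentially expressed, and Jun, Ier2, Zfp36, Hist1h2bg and both Msh5 promoters were not so marked. Just inside the ratio limit were Ufsp1 (4.02), Slc18a2 (4.03) and Pex11a (4.04), and just outside were Slc7a4_1 (3.99), Fam110b (3.98) and Itsn1_1 (3.98). Just inside the FPKM limit were Gm12216 (2.02), Myof (2.04) and H2-Ob (2.04), and just outside were Panx2 (1.95), Slfn8 (1.94) and Plekhn1 (1.93). A name with a digit after a low line is another promoter of that gene. Chromosome 17, which carries the mouse MHC, held 22 of the 161 promoters.

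Marker lists showed which gene groups the rule took in. Over all captured promoters 161 of 3753 were members, whereas the lists below count genes. Of 18 captured genes of MHC and antigen presentation 11 were members, as were 7 of 14 megakaryocyte genes and 6 of 9 immediate early genes. Interferon response genes gave 4 of 36, adult quiescence genes 4 of 26, adhesion genes 3 of 27 and cytokine signalling genes 1 of 25. None of the 9 neutrophil, 12 macrophage, 12 erythroid, 3 lymphoid or 11 fetal program genes was a member. The summed FPKM of the 14 megakaryocyte genes was 332 in adult and 85.9 in fetal cells, and all 14 were higher in adult. All 12 macrophage genes were higher in fetal cells, with sums of 3.56 in adult and 69.9 in fetal. In a bulk sort, more cells of a type and more RNA per cell cannot be told apart, and the part of such cells in the contacts was not tested. Of the genes behind the sort, Kit had 50.5 FPKM in adult and 32.8 in fetal cells. Flt3, which encodes CD135, had 3.81 and 6.20.

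With every score above 0 taken as a call, adult-restricted promoters were called in contact about as often in fetal as in adult HSCs. In batch 1, 726 contacts were called in adult cells alone, 704 in fetal cells alone and 399 in both. In batch 2 the numbers were 530, 529 and 655. The adult-specific share, meaning contacts called in adult alone among contacts called in 1 population, was 50.8% (48.1 to 53.4) in batch 1. Over all captured promoters of that batch it was 47.9%. In batch 2 it was 50.05% (47.0 to 53.1) against 46.3% over all. Promoters restricted to fetal HSCs by the mirrored rule (118 promoters, 2502 contacts) had 46.9% and 45.1%. Contacts called in both populations made up 21.8% (19.9 to 23.8) in batch 1, against 25.3% over all, and 38.2% (35.9 to 40.6) in batch 2, against 36.7%. The adult-specific share and the lower end of its interval lay above the background value in both batches, a gap that was not tested. With called bins up to 5 kb apart merged into 1 contact, the batch 2 share was 37.9% against 37.5% over all, so the gap there nearly closed. In batch 1 the merged share was 49.6% against 46.8%. Without the H2 genes the shares were 49.3% in both batches (46.5 to 52.1, and 46.2 to 52.5), and both intervals then included the background. At a score threshold 1 unit stricter the batch 1 share was 60.1% (56.0 to 64.1), against 51.6% over all. In batch 2 it was 55.5% (51.3 to 59.6), against 48.3%, so the near-even split depended on the score threshold.

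Counts gave a similar account. The median log2 ratio of fetal to adult counts, with 1 added to each, was 0.00 (-0.09 to 0.08) in batch 1 and 0.09 (0.05 to 0.13) in batch 2. Over all contacts it was 0.14 and 0.23, and at fetal-restricted promoters 0.24 and 0.33. When the populations were scaled to equal totals, the member medians became -0.21 and -0.06, and those of all contacts -0.07 and 0.08. Scaling shifts all contacts of a batch nearly alike, so the sign of a median depends on it and the gap between members and all contacts does not. In batch 1, 346 member contacts (18.9%) had an adult count at least 2-fold higher, against 14.4% of all, and 393 (21.5%) a fetal count at least 2-fold higher, against 20.9%. In batch 2 these were 97 (5.66%) against 4.33%, and 190 (11.1%) against 14.0%.

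**Figure D1:**
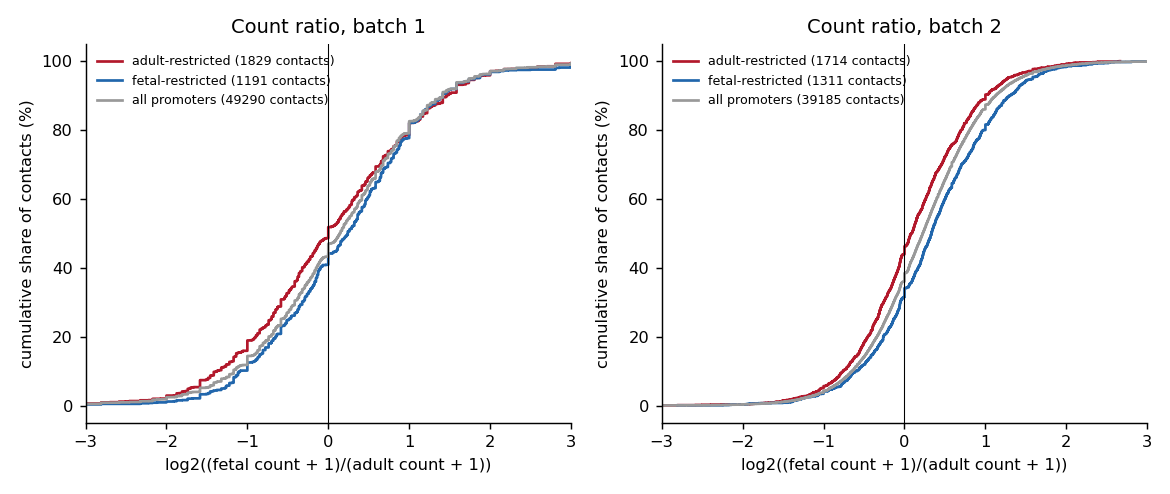
Cumulative share of contacts (y axis, %) by log2 ratio of fetal to adult counts (x axis) in batch 1 (left) and batch 2 (right), for adult-restricted, fetal-restricted and all promoters. The adult-restricted medians are 0.00 and 0.09, against 0.14 and 0.23 for all promoters, while at 2-fold and more towards fetal counts in batch 1 the members' share (21.5%) is close to that of all promoters (20.9%).

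Per promoter, adult calls outnumbered fetal calls at 40 promoters and fetal calls outnumbered adult calls at 33 in each batch, with 4 and 11 equal. The share was 54.8% (42.7 to 66.5) among unequal promoters in both batches, against 47.5% and 43.4% of all captured promoters. In batch 2 it was 31.1% with bins merged up to 5 kb (32.5% over all) and 25.7% for contacts of 60 kb or more (20.5% over all). At least 10 contacts were listed for 112 of the 161 promoters and a single contact for 12. No adult call was listed for 10 members and no fetal call for 8, and 32 members had under 5 contacts. No value over all captured promoters is given here for these counts, so they are not read as a trait of the members.

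**Figure D2:**
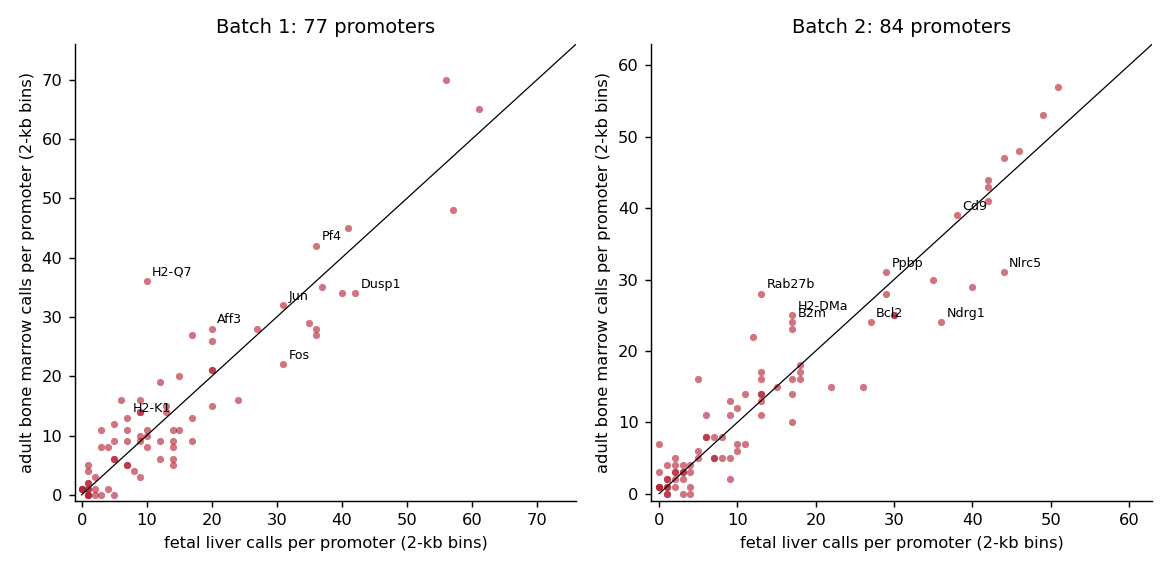
Adult calls (y axis) against fetal calls (x axis) per adult-restricted promoter in batch 1 (left, 77 promoters) and batch 2 (right, 84 promoters), with the line of equality. Points lie on both sides of the line, with H2-Q7 (36 adult and 10 fetal calls) farthest above it in batch 1.

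The MHC genes differed among themselves. Their 7 promoters in batch 1 had an adult-specific share of 60.9% (53.4 to 68.0), with 5 promoters having more adult calls and 2 more fetal calls. H2-Q7 alone gave 36 adult and 10 fetal calls, and without it, a choice made after its values were seen, the share was 54.9% (46.4 to 63.2). The 4 in batch 2 had 53.8% (43.8 to 63.5). H2-K1, a classical class I heavy chain, had 13 adult and 7 fetal calls, and H2-Q6 had 70 and 56. H2-Q4 went the other way with 28 and 36, and H2-D1, a class I heavy chain with 240 FPKM in adult cells, had a single contact, called in fetal cells with counts of 0 and 6.

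B2m was called 24 times in adult and 17 times in fetal cells, with summed counts of 1284 and 1119. H2-DMa and H2-DMb1, which encode the chaperone that loads class II MHC molecules, had 25 and 17 calls, and 23 and 17. Nlrc5, the transactivator of class I genes, had 31 adult and 44 fetal calls, although its adult FPKM was 3.75 against 0.251, values it was selected on. Tap1, a peptide transporter, had 2 and 1. Of the 11 MHC promoters on the list, 8 had more adult calls and 3 more fetal calls, where 47.5% and 43.4% of all unequal promoters had more adult calls. The 11 include promoters with 1 to 3 contacts and neighbours that share bins, such as H2-Q4 and H2-Q6 with 28 in common. H2-Ob, a member not on the list, had 18 adult and 18 fetal calls.

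H2-Q7 shows how calls and counts can part. Its summed count was 814 in adult and 2788 in fetal cells, although it had more adult calls. One bin, at chr17:35530001-35532001 in mm9, held 256 adult and 2366 fetal counts, and its active promoter mark was listed in adult cells alone. Its largest adult excess of counts, at chr17:35400001-35402001 and 175 kb away, had 11 adult counts and 0 fetal counts. H2-Q6 contacted the bins of H2-Q4 44.8 kb away with 22 and 45 counts. How reads of the near-identical Q genes were divided among the copies is not given in the sources used here.

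The megakaryocyte genes had more adult calls at most promoters, though the intervals of their share included an even split. Their adult-specific share was 59.6% (44.3 to 73.6) in batch 1 and 59.3% (48.2 to 69.8) in batch 2, with 6 promoters having more adult calls, 1 more fetal and 1 equal. The batch 2 share leaned on Rab27b, a promoter picked out after its values were seen. It gave 21 of the 51 contacts called in adult alone and 6 of the 35 called in fetal alone. Over all captured promoters the shares were 47.9% and 46.3%, and 47.5% and 43.4% of unequal promoters had more adult calls. Among the megakaryocyte promoters, Itga2b had only 5 contacts, and Itgb3 and Rab27b_1 4 each. Pf4, encoding platelet factor 4, had 42 adult and 36 fetal calls, with counts of 819 and 694. Ppbp, encoding the platelet basic protein, lies 4.19 kb away and was captured in the other batch, with 31 and 29 calls. The pair shared 31 bins, 51.7% of Pf4's and 68.9% of Ppbp's. Of these 31 bins, 11 had the same class at both promoters, 8 of them called in both populations and 3 in adult alone, whereas 6 had opposite classes.

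The bin at chr5:91314001-91316001, marked as an active enhancer in adult cells alone, showed this. From Pf4 it was called in adult cells alone (15 against 8 counts), and from Ppbp in fetal cells alone (20 against 21). Rab27b, a GTPase of platelet granule release, had 28 adult and 13 fetal calls at one promoter and 1 and 4 at the other. Itga2b, the integrin chain CD41, had 4 and 1, and Cd9, a tetraspanin of platelets and stem cells, 39 and 38.

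Immediate early promoters had nearly equal calls or more fetal calls. Fos had 62.3 FPKM in adult and 0.0899 in fetal cells, values it was selected on, but 22 adult and 31 fetal calls and summed counts of 567 and 670. It shared 18 contacts between the populations. Jun had 32 and 31 calls, and Dusp1, a phosphatase that switches MAP kinases off, 34 and 42. Ier2, Egr1 and Zfp36 had 21 and 20, 10 and 9, and 6 and 5. The 6 promoters together had an adult-specific share of 45.1% (36.5 to 54.0), an interval that included the 47.9% over all captured promoters of batch 1. Adult calls were more numerous at 4 of the 6 and fetal calls at 2, where 47.5% of all unequal promoters had more adult calls.

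Of the 4 members on the interferon response list, Ifi44 and Tgtp1 had more fetal calls, and Gbp2 and Iigp1 had equal calls. Of all unequal promoters, 47.5% in batch 1 and 43.4% in batch 2 had more adult calls. Ifi44, an interferon-induced protein, had 6 adult and 14 fetal calls, and Tgtp1, an interferon-induced GTPase, 11 and 15. Gbp2 and Iigp1 had 3 and 3, and 1 and 1, from 4 contacts and 1. Ifi44 and Tgtp1, the batch 1 promoters, had an adult-specific share of 33.3% (18.6 to 51.0). That interval included the 47.9% over all captured promoters of the batch. Member genes off that list whose windows held the response element mostly had more adult calls, which was not tested. Slfn8_1 had 11 adult and 3 fetal calls, B2m 24 and 17, and Clec2d 13 and 9. H2-T23 had 9 and 7, and Gstt1 and Itga2b 4 and 1 each, from 5 contacts each. Tgtp2 had 5 and 7 and Trim30d 0 and 2, with more fetal calls. The window searched for Slfn8 need not be that of Slfn8_1. Among quiescence genes, Klf4, a transcription factor that restrains the cell cycle, had 3 adult calls and no fetal call. Cdkn2c, the CDK inhibitor p18, had 16 and 24 calls at one promoter and 15 and 20 at the other. Cish, a STAT5 target that damps cytokine signals, had 26 and 20.

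Other members with large imbalances included Fgf3 (16 adult and 5 fetal calls), Nwd1_1 (16 and 6) and Sdsl (12 and 5) towards adult. Towards fetal cells they included Hspa1b (15 and 26) and Pex11a (2 and 9), a peroxisome division protein. Ndrg1, a stress-responsive protein, leaned less strongly to fetal cells with 24 and 36. Galnt6, a glycosyltransferase, had 3 and 9 at one promoter and 5 and 14 at the other. Neat1, the long non-coding RNA of paraspeckles, had 41 and 42, and Bcl2, an inhibitor of apoptosis, had 24 and 27, with 23 contacts called in both.

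Adult calls lay closer to the promoter than fetal calls. Median distances were 129 kb (124 to 138) for adult and 162 kb (155 to 171) for fetal calls in batch 1, and 83.1 kb (79.1 to 89.0) and 104 kb (99.8 to 108) in batch 2. All captured promoters showed the same order, with 153 and 178 kb, and 77.7 and 102 kb. Between 20 and 60 kb the adult-specific share was 78.9% (69.4 to 86.6) in batch 1 and 85.2% (80.4 to 89.3) in batch 2, against 69.5% and 84.4% of all. From 60 to 200 kb it was 51.9% (48.2 to 55.6) and 40.6% (36.8 to 44.5), against 50.9% and 34.8%. From 200 to 600 kb it was 43.5% (39.4 to 47.8) and 29.2% (21.9 to 37.3), against 40.6% and 28.9%. At 600 kb or more it was 53.3% (37.9 to 68.3) and 36.4% (10.9 to 69.2), against 52.0% and 37.3%, from 45 and 11 member contacts called in 1 population.

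**Figure D3:**
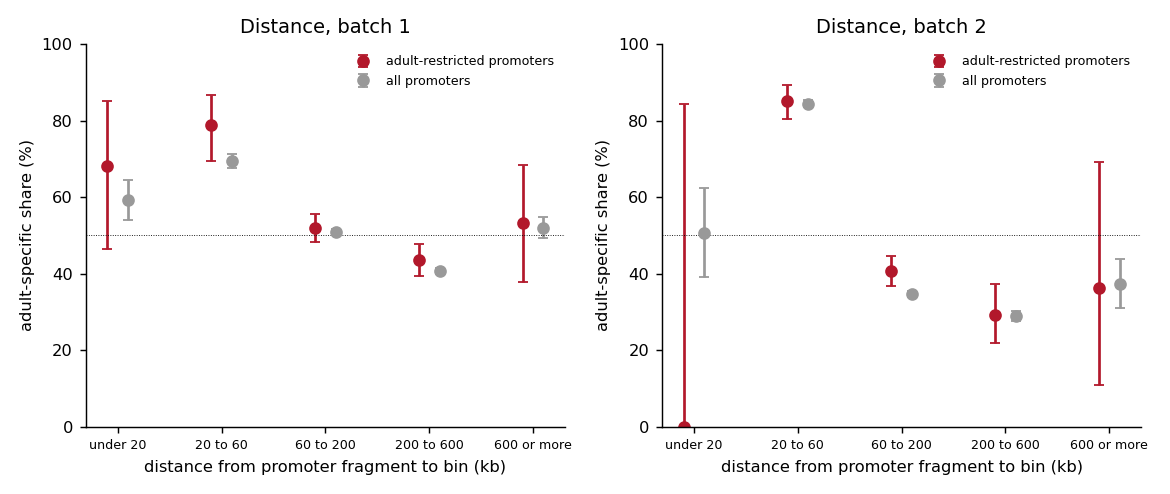
Adult-specific share (y axis, %, with exact 95% intervals) by distance class in kb (x axis) for adult-restricted and all promoters in batch 1 (left) and batch 2 (right). Shares fall from the 20 to 60 kb class (78.9% and 85.2%) to the 200 to 600 kb class (43.5% and 29.2%) in both sets, and are higher again at 600 kb or more (53.3% and 36.4%).

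Chromatin marks at the distal bins came from other assays of the 2 populations and were not used by the rule. Bins with an active enhancer mark in adult cells alone made up 62 of 1829 contacts (3.39%, 2.61 to 4.32) in batch 1 and 77 of 1714 (4.49%, 3.56 to 5.58) in batch 2, against 3.24% and 3.55% of all. At an expression ratio of at least 8 the batch 1 value was 1.32%, below the background. Bins with the mark in fetal cells alone made up 63 (3.44%) and 64 (3.73%), against 4.28% and 4.08%. At bins marked in adult alone the adult-specific share was 54.3% (39.0 to 69.1) and 55.8% (41.3 to 69.5), against 56.7% and 59.7% of all. At bins marked in fetal alone it was 37.8% (23.8 to 53.5) and 44.7% (28.6 to 61.7), against 45.2% and 40.4%. These intervals are wide, and the members' shares lay within reach of the background. At a score threshold 1 unit stricter, the share in batch 2 was higher at fetal-only than at adult-only bins, the reverse order. An adult-only enhancer bin was contacted by 67 members (41.6%) and a fetal-only one by 63 (39.1%), against 38.3% and 41.6% of all promoters. Both kinds were contacted by 36 members, and no active enhancer bin by 53. These 36 and 53 have no value over all promoters here and are not read as a trait of the members. Bins marked in both populations had shares of 53.3% (42.6 to 63.7) and 61.5% (49.8 to 72.3), against 54.1% and 53.6% of all. Bins with an active promoter mark in adult cells were 13.3% and 14.5% of member contacts, against 15.7% and 18.1% of all. Open chromatin by ATAC in adult cells was listed at 48.7% (46.4 to 51.0) and 52.1%, against 50.1% and 53.4%.

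**Figure D4:**
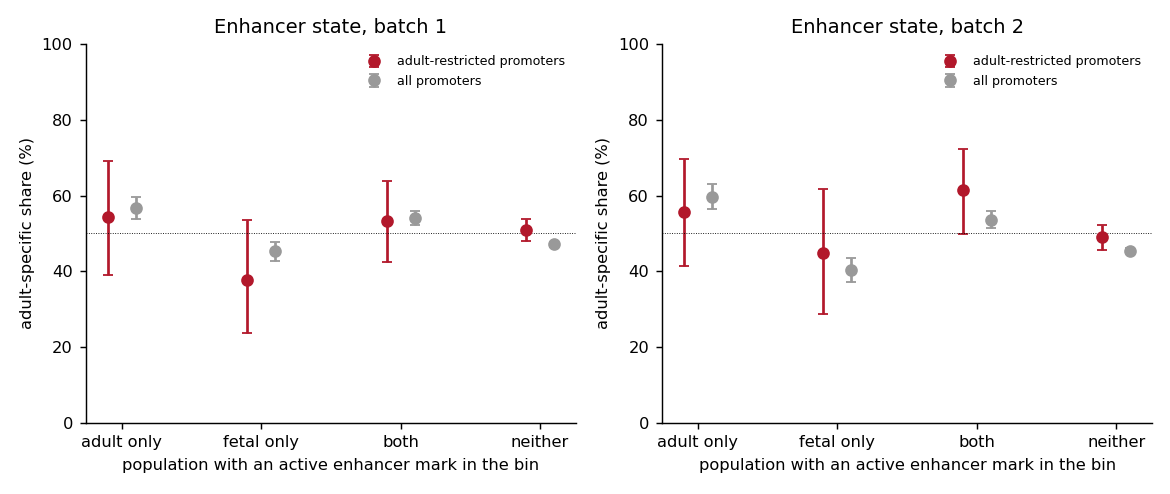
Adult-specific share (y axis, %, with exact 95% intervals) by the population in which the distal bin carried an active enhancer mark (x axis), for adult-restricted and all promoters. At adult-only bins the members stood at 54.3% and 55.8%, and at fetal-only bins at 37.8% and 44.7%.

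The promoters with the most adult-only enhancer bins showed both patterns of contact. Aff3, a nuclear protein of the AF4 family, had 6 such bins in batch 1, of which 5 were called in adult cells alone and 1 in fetal cells alone. The clearest, at chr1:38604001-38606001 and 117 kb away, had 13 adult and 4 fetal counts. Aff3_1, the other promoter of the gene in batch 1, had no such bin and 9 adult and 9 fetal calls. H2-DMa had 6 such bins between 28.8 and 67.2 kb, of which 3 were called in adult alone, 2 in both and 1 in fetal alone. H2-DMb1 also had 6, of which 3 were called in adult alone and 3 in fetal alone. The bin at chr17:34304001-34306001 had 90 adult and 66 fetal counts from H2-DMa. The same bin was called from H2-K1, 168 kb away in batch 1, in adult cells alone with 11 and 3 counts.

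Ndrg1 had 6 such bins, of which 2 were called in adult alone, 2 in both and 2 in fetal alone, and its bin at chr15:66952001-66954001 had 16 adult and 40 fetal counts. Fam69b had 6, of which 4 were called in fetal cells alone. Clec2d, a ligand of the NKR-P1 receptors of natural killer cells, contacted chr6:129182001-129184001 with 75 and 30 counts in both populations. Alcam, an adhesion molecule, contacted chr16:52418001-52420001, 33.8 kb away, with 46 and 17 counts. Klf4 contacted chr4:56234001-56236001, 690 kb away, with 21 and 7. These last 3 were named because their adult excess of counts was among the largest at adult-only enhancer bins of batch 2.

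**Figure D5:**
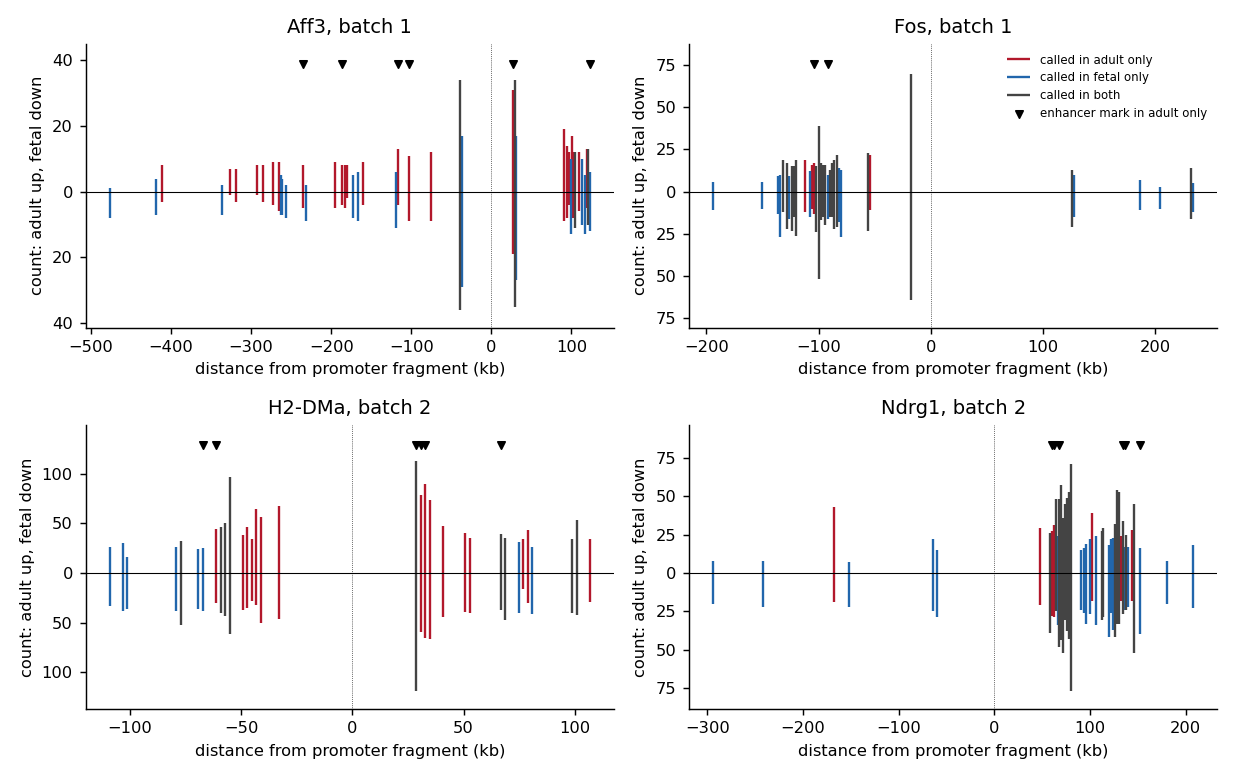
Counts of each called contact (y axis, adult upward and fetal downward) against distance from the promoter fragment in kb (x axis) for Aff3, Fos, H2-DMa and Ndrg1, coloured by the population that called it, with triangles at adult-only enhancer bins. Aff3 has 6 triangles with mainly adult calls, whereas Fos has 13 fetal-only and 4 adult-only calls.

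A few contacts carried very high counts, those between Hspa1a and Hspa1b the highest among members. The bin of Hspa1b was counted from Hspa1a 79600 times in adult and 81973 times in fetal cells, and the bin of Hspa1a from Hspa1b 79835 and 82322 times. Samd9l had 8794 and 10671 counts at 1 bin 39.9 kb away, and C1ra, a complement protease, 22337 and 21805 at 57.9 kb. From Tgtp2 the bin of its copy Tgtp1 had 3 adult and 104 fetal counts, and from Tgtp1 the bin of Tgtp2 had 27 and 31. Whether reads of such pairs come from ligation or from the shared sequence was not tested. Neighbouring members also shared bins: Ache and Ufsp1 had 26 in common, Hspa1a and Hspa1b 17, and H2-DMa and H2-DMb1 14. These pairs were chosen after their values were seen.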

How the data were processed

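The authors deposited 1 contact table with counts, interaction scores, FPKM values and presence marks (0 or 1) of chromatin states per population and batch. Per the submitters' processing notes the build was mm9 and the tools included Trim Galore 0.41 and Bowtie2 2.2.2. How the 2 libraries of a population and batch were combined, how duplicate reads were treated and how FPKM was made are not given in the sources used here. A score above 0 was taken as a call. The smallest score was 1.3 in batch 1 and 2 in batch 2. Shares, medians, exact 95% intervals and log2 ratios of deposited counts (1 added) were computed in Python 3.11.15 with pandas 2.3.3 and scipy 1.17.1, checked on simulated data. Distances run between the middles of fragment and bin.

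The members and the 12 gene lists were chosen with earlier results of these data known. Genes were named by adult FPKM, excess of adult or fetal calls, most adult-only enhancer bins (read as per batch, ties kept) and lists. Single contacts beyond the largest adult counts, and the promoter sequences shown, were chosen after values were seen. The HPC7 cell line samples were not analysed here.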

Additional observations from a re-analysis of the deposited data

Results flagged for a closer look

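Contacts between chromosomes lay outside the comparisons above, which used within-chromosome contacts. Adult-restricted promoters had 111 of them at 16 promoters, 87 called in both populations, 11 in adult alone and 13 in fetal alone. Pisd-ps2, a pseudogene, held 89 of the 111. The other 15 promoters held 22, with 4 called in adult alone and 4 in fetal alone. In the whole series 88475 of 89545 contacts lay within a chromosome. The classes of its contacts between chromosomes are not given here, so the members' numbers are not read as particular to them.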

How the results depend on the processing

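Of 256 alternatives to 20 values, 198 stayed within the interval of the value reported and 58 moved outside it. No paired analysis was possible because the deposited values pool the replicates. Leaving out promoters with sequence copies, promoters with under 10 contacts and contacts under 60 kb was chosen after seeing the data. In what follows, the adult-specific share is over contacts called in 1 population, and the cause of a shift was not tested.

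With a score threshold 1 unit stricter, the adult-specific share was 60.1% and 55.5% in batches 1 and 2 (51.6% and 48.3% over all contacts). The median log2 count ratio was -0.15 and 0.026, and 73.7% of batch 1 promoters with unequal calls had more adult calls (56.4% over all). Batch 1 median distances were 123 kb (adult) and 150.4 kb (fetal). The adult-specific share was 70% at adult-only enhancer bins of batch 2, and 55.0% and 75% at fetal-only ones. With bins merged up to 5 kb, the share in batch 2 was 37.9% (37.5% over all) and 31.1% of its unequal promoters had more adult calls (32.5% over all). The share called in both was 30.8% in batch 1, the batch 2 log2 ratio 0.18, and distances 168 and 89.1 kb (adult), 193 and 116 kb (fetal). Only contacts of 60 kb or more gave 38.5% in batch 2 (33.5% over all), with 25.7% of unequal promoters having more adult calls (20.5% over all), a log2 ratio of 0.14 and 38.9% at adult-only enhancer bins. Batch 1 then had 19.5% called in both, and distances were 150.3 and 112 kb (adult), 176 and 116 kb (fetal). Batch 2 thus had a lower adult-specific share without its short contacts.

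Scaling to equal totals gave log2 ratios of -0.21 and -0.063, a change of sign in batch 2. An FPKM pseudocount of 1 gave an adult-specific share of 53.5% in batch 1, log2 ratios of -0.10 and 0.048, distances of 73.6 kb (adult, batch 2), 152 and 95.8 kb (fetal), and 5.95% adult-only enhancer bins in batch 2. An FPKM of at least 5 gave 53.2% in batch 2, 23.9% and 42.5% called in both, distances of 121 kb (adult, batch 1), 149 and 98.0 kb (fetal), and 6.36% adult-only enhancer bins in batch 2. A ratio of at least 8 gave 19.8% and 35.6% called in both, distances of 93.8 kb (adult, batch 2), 149.7 and 112 kb (fetal). Adult-only enhancer bins were then 1.32% of 681 contacts in batch 1, with an adult-specific share of 75%, and fetal-only ones 1.80% in batch 2, with 62.5%. Both shares thus rest on few contacts. With ATAC in place of the enhancer mark, adult-only bins were 6.07% and 6.18% and fetal-only bins 6.67% and 5.78%. With the active promoter mark, the share at fetal-only bins was 60% and 28.6%. Leaving out each promoter in turn, also chosen after seeing the data, kept the adult-specific share between 49.9% (without H2-Q7) and 51.1% in batch 1, and between 49.3% (without Rab27b) and 50.7% in batch 2.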
